A study of Mus musculus with 2 samples.

Results

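Mir199a-1, Mir199a-2, Mir199b and Mir214 are the microRNA (miRNA) genes that lie on the strand opposite to the dynamin genes, and they are known as miRNA genes of mesenchyme. They were taken by name, by matching the deposited gene identifiers to GENCODE symbols, and all 4 were found among the 1973 genes of the count tables. The samples were 2 small RNA libraries of stomach from healthy mouse embryos of strain B6NCrl at 16.5 days. Male and female embryos were pooled for each library, labelled as biological replicates 1 and 2, with 41 embryos named for replicate 2. Both carry 1 donor label, whole stomachs were used, and there was no second tissue, age, genotype or treatment. Differences between the libraries therefore measure spread between these pools, which may be technical.

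A miRNA gene is transcribed as a hairpin, from which a mature strand of the 5′ arm (5p) or the 3′ arm (3p) is cut and loaded onto Argonaute. The mature strand pairs with messenger RNAs mainly through its seed. The miR-199 and miR-214 genes are expressed in mesenchymal cells such as fibroblasts, and they are studied in organ fibrosis. In mouse, Mir199a-2 and Mir214 are made from the long noncoding RNA Dnm3os, whose loss impairs growth and the skeleton, and which Twist1, a transcription factor of mesenchyme, can induce. Known targets are Ezh2 for miR-214-3p, and mTOR and Met for miR-199a-3p.

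The mature sequences are shown to make visible which of these genes a read can be told apart at. They are from RefSeq on GRCm38.p6, the assembly that mm10 names, 5′ to 3′, with the seed (bases 2 to 8) in capitals.
miR-199a-5p, from Mir199a-1 and Mir199a-2: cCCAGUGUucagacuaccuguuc
miR-199a-3p, from Mir199a-1 and Mir199a-2: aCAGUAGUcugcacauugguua
miR-199b-3p, from Mir199b: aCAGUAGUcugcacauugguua
miR-214-5p, from Mir214: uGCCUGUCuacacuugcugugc
miR-214-3p, from Mir214: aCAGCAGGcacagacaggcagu
The letters of miR-199a-3p and miR-199b-3p are the same, and this 3p sequence was found in 3 hairpins, those of Mir199a-1, Mir199a-2 and Mir199b. The sequence of miR-199a-5p was found in 2 hairpins, those of Mir199a-1 and Mir199a-2. Each arm of Mir214 was found in 1 hairpin alone.

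The 5p side sets Mir199b apart from its relatives. Its hairpin window aligned to miR-199a-5p carries 1 substitution, C10U, counted from the 5′ end of miR-199a-5p, and the differing base is in capitals below.
miR-199a-5p: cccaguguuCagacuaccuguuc
Mir199b hairpin, bases 26 to 48: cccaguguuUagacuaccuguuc
This window was found in no hairpin other than that of Mir199b, and it lies at chr2:32318485-32318507 on the plus strand. The substitution lies outside bases 2 to 8, so both sequences have the same seed.

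The whole hairpins are shown with the mature arms listed above in capitals, to set the shared stretches in their surroundings.
Mir214: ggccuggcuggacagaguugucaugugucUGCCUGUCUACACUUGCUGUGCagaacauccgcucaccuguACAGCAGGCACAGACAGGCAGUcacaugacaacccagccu
Mir199b: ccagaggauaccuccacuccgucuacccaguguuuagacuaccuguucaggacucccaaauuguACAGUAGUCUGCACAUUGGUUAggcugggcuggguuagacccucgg
Mir199a-2: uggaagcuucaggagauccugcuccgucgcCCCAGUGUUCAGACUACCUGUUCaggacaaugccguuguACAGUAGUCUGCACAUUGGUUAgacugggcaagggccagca
Mir199a-1: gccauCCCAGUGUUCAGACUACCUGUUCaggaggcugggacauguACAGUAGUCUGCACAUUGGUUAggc
The longest run of bases shared by the hairpins of Mir199a-1 and Mir199a-2 was 27 bases, over the 5p arm, and a run of 26 bases covered the 3p arm. Mir199b shared its longest runs over the 3p arm, with 27 bases in common with Mir199a-2 and 28 with Mir199a-1. Around its 5p side the runs were 18 bases with Mir199a-2 and 17 with Mir199a-1. Mir214 shared no run longer than 7 bases with any of them. Of the 22-base windows in each hairpin, 89 of 89 in Mir214 were found in no other hairpin of the RefSeq table, against 81 of 89 in Mir199b, 77 of 89 in Mir199a-2 and 36 of 49 in Mir199a-1. The predicted folding energy was −67.5 kcal/mol for Mir214, against −42.1 for Mir199b and −42.5 kcal/mol for Mir199a-2, which have the same length of 110 bases. The Mir199a-1 hairpin, at 70 bases, had −28.9 kcal/mol.

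**Figure D1:**
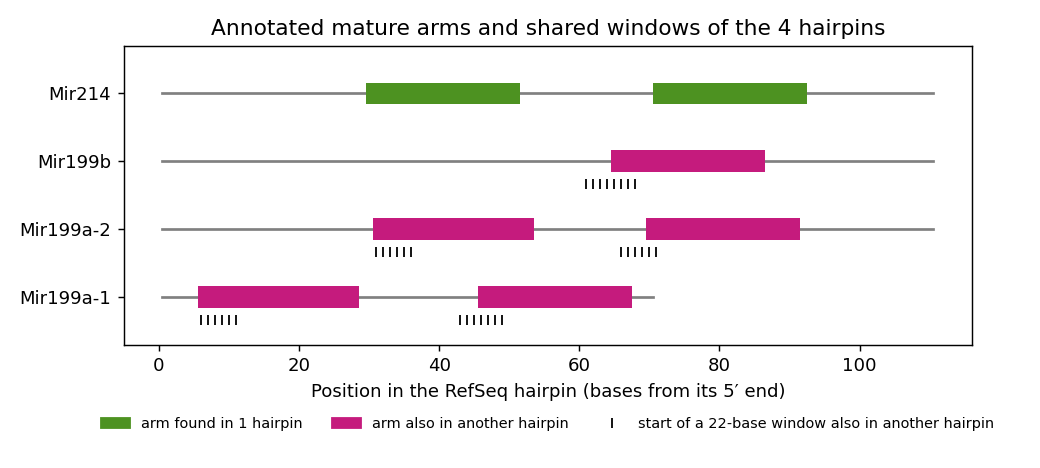
The 4 hairpins drawn to scale as lines, with position in bases from the 5′ end on the x axis; boxes are the RefSeq mature arms, green where the arm was found in 1 hairpin and pink where it was also in another, and ticks mark the start of each 22-base window also found in another hairpin. Mir214 has 2 green arms and no tick, while each boxed arm of the miR-199 hairpins is pink, and the 5p side of Mir199b carries no tick.

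The 4 genes lie at 3 places in the genome (GRCm38). Mir199a-2 lies at chr1:162217814-162217923 and Mir214 at chr1:162223368-162223477, both on the plus strand, with 5444 bases between them. Both lie within an exon of Dnm3os, starting at its bases 192 and 5746 of 7928, and opposite to an intron of Dnm3. The annotated exons that hold both whole run from base 1 to 7926 or 7928, while other exons end inside a hairpin, at bases 278 and 5771. Mir199b lies at chr2:32318460-32318569 on the plus strand, opposite to an intron of Dnm1. Mir199a-1 lies at chr9:21496495-21496564 on the minus strand, opposite to an intron of Dnm2. Within 10 kb of a member, the only other gene with a row was Gm23363, which begins 116 bases from Mir199b on the same strand and was counted 4 times in replicate 1 and 4 times in replicate 2.

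The counts are of sequenced reads per whole hairpin gene on the sense strand, 7734578 in replicate 1 and 7983714 in replicate 2. Reads that fitted several places in the genome form a total of their own, 25.1% (replicate 1) and 25.2% (replicate 2) of all reads, and it is inferred that no gene's count holds them. Counts at Mir199a-1, Mir199a-2 and Mir199b are therefore uncertain as totals of each gene, since reads of their identical arms may be missing. In whole tissue, fewer cells of a type and less RNA per cell cannot be told apart. Markers of the other cell types a stomach can hold were read, with 9.39% and 10.5% of sense reads in replicates 1 and 2 on the 12 epithelial genes listed, and 2.903% and 2.905% on the endothelial gene Mir126a. Levels are in counts-per-million (CPM) of the sense reads.

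Mir214 was the most abundant of the 4 genes in counted reads. It was counted 53252 times in replicate 1 and 51176 times in replicate 2, or 6885 and 6410 CPM, a mean of 6647 ± 336 CPM (SD, n = 2). It ranked 29 among all genes in each library. The exact Clopper-Pearson 95% intervals of its level were 6827 to 6943 CPM and 6355 to 6466 CPM, which cover counting error only, as do all intervals here. On the strand opposite to Mir214, where Dnm3 is transcribed, 2 reads were counted in replicate 1 and 0 in replicate 2, which is under the floor of 3 counts.

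Mir199b followed, and it was the member that differed most between the pools. Its reads numbered 17788 in replicate 1 and 8306 in replicate 2, or 2299.8 and 1040.4 CPM. The mean was 1670 ± 891 CPM (SD, n = 2), so the SD came to 53.3% of the mean, against 5.05% for Mir214. Its rank was 66 in replicate 1 and 94 in replicate 2.

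Mir199a-2, made from the same Dnm3os transcript as Mir214, was counted 876 times in replicate 1 and 800 times in replicate 2. These are 113 and 100.2 CPM, a mean of 107 ± 9.23 CPM (SD, n = 2), and the gene ranked 191. Mir199a-1 was counted 114 times in replicate 1 and 64 times in replicate 2, or 14.7 and 8.02 CPM, with a mean of 11.4 ± 4.75 CPM and rank 282. Its intervals were 12.2 to 17.7 CPM and 6.17 to 10.2 CPM and did not overlap, and neither did those of Mir214 and Mir199b. In the exact binomial test described below, 76.1% of the 289 genes tested had an adjusted p under 0.05 without a fold threshold. A difference beyond counting error is therefore the common case between these libraries. No opposite-strand read was counted at Mir199b, Mir199a-2 or Mir199a-1 in either library.

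The order Mir214, Mir199b, Mir199a-2 and Mir199a-1 was the same in both libraries. The higher gene's lower value lay above the lower gene's higher value at each step, so no 2 neighbours in this order overlapped. The order describes reads placed in 1 position. Each miR-199 arm that RefSeq names is found in another hairpin, and the levels of these mature strands cannot be read from it.

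**Figure D2:**
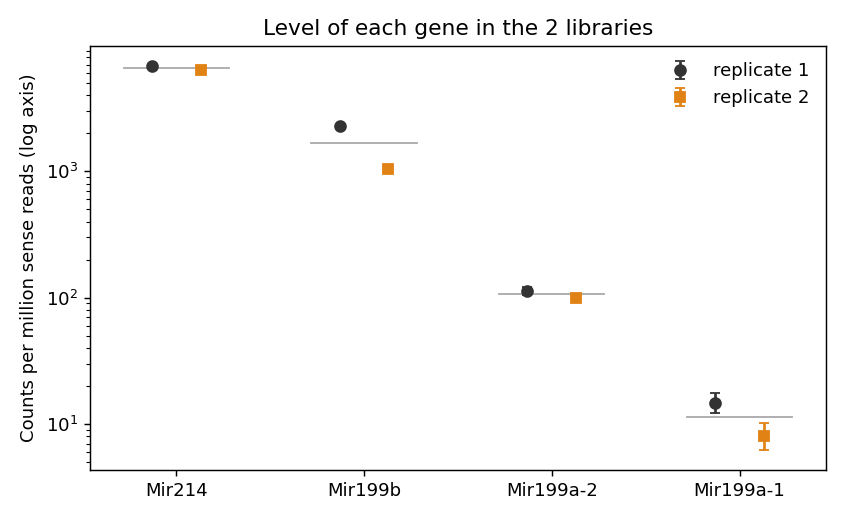
Level of each gene in CPM of sense reads on a log axis, for replicate 1 (circles) and replicate 2 (squares), with exact 95% counting intervals as bars and the mean of both as a grey line. The points of Mir214 and Mir199a-2 nearly coincide between the libraries, while those of Mir199b stand at 2299.8 and 1040.4 CPM.

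Together the 4 genes held 0.931% of the sense reads in replicate 1 (exact 95% interval 0.925% to 0.938%) and 0.756% in replicate 2 (0.750% to 0.762%). Of these reads, Mir214 supplied 73.9% in replicate 1 and 84.8% in replicate 2. Mir199b supplied 24.7% and 13.8% in the same order. Mir199a-2 stood at 1.22% and 1.33%, and Mir199a-1 at 0.158% and 0.106%. The libraries thus split the reads differently between Mir214 and Mir199b. The 2 genes of Dnm3os together held 0.700% and 0.651% of all sense reads, and the 3 miR-199 genes 0.243% and 0.115%.

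**Figure D3:**
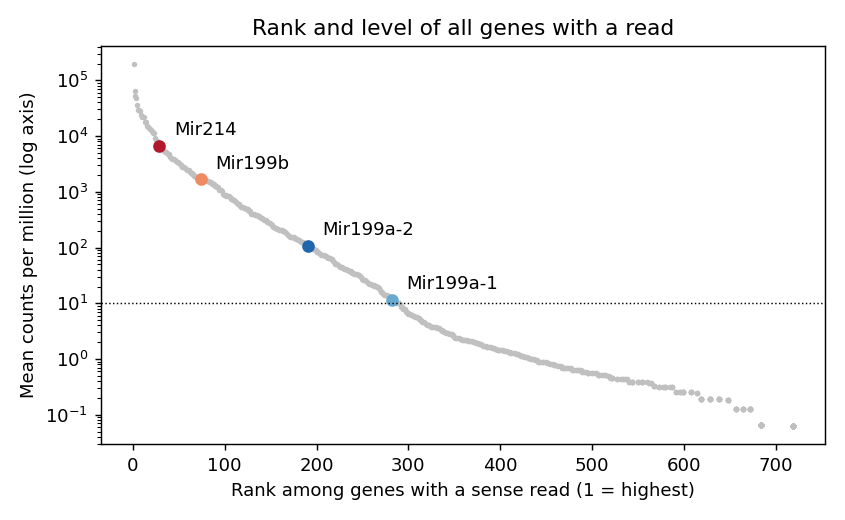
Mean CPM on a log axis against rank for all genes with a sense read (grey), with the 4 genes in colour and the level of 10 CPM as a dotted line. Mir214 stands at rank 29, Mir199b at 74, Mir199a-2 at 191 and Mir199a-1 at 282, just above the line.

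Ratios between the members inside a library need no scaling of the libraries. Mir214 was counted 60.8 times as often as Mir199a-2 in replicate 1 (exact 95% interval 56.9 to 65.1) and 64.0 times in replicate 2 (59.7 to 68.7), and the intervals overlapped. Mir214 over Mir199b was 2.99 in replicate 1 (2.94 to 3.05) and 6.16 in replicate 2 (6.02 to 6.31). Mir199b over Mir199a-2 was 20.3 and 10.4. Mir199a-2 over Mir199a-1 was 7.68 (6.32 to 9.42) in replicate 1 and 12.5 (9.68 to 16.4) in replicate 2. Mir199b over Mir199a-1 was 156 (130 to 189) in replicate 1 and 130 (102 to 169) in replicate 2, and these intervals also overlapped. The ratio of the 2 Dnm3os genes was thus nearly the same in both libraries. Each of the ratios of Mir199b to the Dnm3os genes moved by about 1 on the log2 scale, by −1.04 for Mir214 over Mir199b and by 0.97 for Mir199b over Mir199a-2. Mir199b over Mir199a-1, from different chromosomes, moved by 0.27, so overlapping intervals were not particular to the Dnm3os pair.

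**Figure D4:**
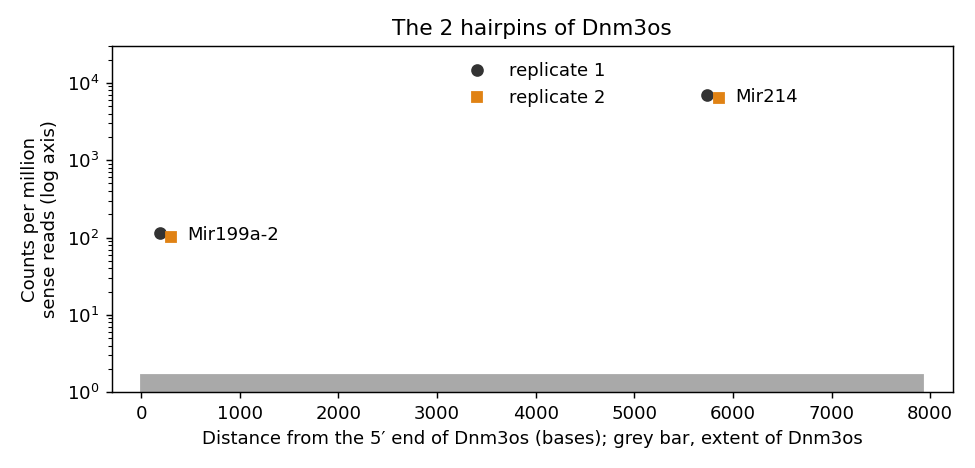
Level of Mir199a-2 and Mir214 in CPM of sense reads (log axis) at their distance in bases from the 5′ end of Dnm3os, whose extent is the grey bar; circles are replicate 1 and squares replicate 2, set side by side at each hairpin. Mir214, with a mean of 6647 CPM, and Mir199a-2, with a mean of 107 CPM, lie on the same transcript.

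The 62.3-fold gap in mean counted level between Mir214 and Mir199a-2 was set beside other miRNA genes that neighbour each other, a comparison chosen after the values were seen. Pairs were taken as miRNA genes on 1 strand, about 10 kb apart or less and each reaching a mean of 10 CPM. Of the 278 pairs counted, 26 had a gap at least as large, this pair included, or 9.35%. The median gap was 6.02-fold. With pairs up to 50 kb apart it was 59 of 565 pairs, and with genes down to 1 CPM it was 68 of 348. Many of these pairs share a gene, so they are not independent. Both arms of Mir199a-2 are also found in other hairpins and those of Mir214 are not, so reads may be missing from Mir199a-2 alone. Some other pairs with a gap at least as large also hold a gene with shared mature sequences, such as Mirlet7a-1 beside Mirlet7d. The part of shared arms in these gaps was not tested. Positions were rounded for this comparison, so distances are approximate, at 4999 bases between Mir199a-2 and Mir214 in place of 5444. Neighbours whose rounded places overlapped were left out, so these counts and medians do not cover all close neighbours. Between the libraries, the log2 ratio of Mir214 to Mir199a-2 shifted by 0.07, against a median shift of 0.31 over the 278 pairs. Of the 278 pairs, 39 shifted by no more, this pair included.

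Identical arms were set beside the counted levels in the same way, also after the values were seen. For 35 genes with a row, each RefSeq mature sequence was also found in another hairpin, and all 3 miR-199 genes were among them. Mir199b is in this class through its 3p strand alone, the only one that RefSeq names for it. Its 5p window was found in no other hairpin, so the class does not mean that all its reads are shared. Of the 35 genes, 11 had a read and 7 reached a mean of 10 CPM, or 20.0%. Mir199b was the highest of them, followed by Mirlet7a-1 at 178 CPM, Mirlet7c-2 at 163 CPM and Mir199a-2. Of 49 genes with some but not all mature sequences shared, 44 had a read and 31 reached 10 CPM, or 63.3%. Of 832 genes with none shared, 577 had a read and 228 reached 10 CPM, or 27.4%. Only genes whose symbol matched a RefSeq mature sequence enter these classes. Other genes of the count tables, Mir143 and Mir145a among them, are in none. Among genes with a read, the median level was 39.3 CPM with all sequences shared, 26.9 CPM with some and 2.04 CPM with none. Over all genes of each class, with or without a read, the medians were 0, 21.8 and 0.444 CPM in the same order. What part shared arms have in the levels of the miR-199 genes was not tested.

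The libraries were then compared gene by gene after scaling by trimmed mean of M values (TMM), by an exact binomial test, two-sided, of the counts over the 289 genes whose mean level was 10 CPM or more, and Benjamini-Hochberg adjustment. A gene was called at an adjusted p under 0.05 and at least 2-fold. The test compares these 2 libraries by counting error and not conditions. None of the 4 genes was called in either direction, against 7.96% of all genes tested (23 of 289). Without the fold threshold 3 of the 4 passed, against 76.1% of all genes, so a pass there is the common case. The only member that did not pass was Mir199a-2.

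Mir199b came nearest to the threshold, with a log2 ratio of replicate 1 over replicate 2 of 0.96 (95% interval 0.92 to 1.00). It ranked 24 of 289 by size of ratio, and its adjusted p by the exact test was at or under 1e-300. Scaling by total sense reads gave 1.14 and made it a call, against 10% of genes called with that scaling, where the median log2 ratio over the tested genes was 0.21, against 0.02 with TMM. TMM factors from all genes with a read gave 1.00179, also a call (7.96% of all genes with those factors), so the side of the threshold rests on the scaling. Mir199a-1 had a log2 ratio of 0.69 (0.24 to 1.16), with an adjusted p of 0.003 by the exact test, and it reached the 10 CPM needed for testing through replicate 1 alone.

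The Dnm3os genes lay close to equality. Mir214 had a log2 ratio of −0.08 (−0.10 to −0.06), with an adjusted p of 2.42e-18 by the exact test, and total-read scaling turned it to 0.10. Mir199a-2 had a log2 ratio of −0.01 (−0.15 to 0.13), with an adjusted p of 0.945 by the exact test, and it turned to 0.18 with total-read scaling and to 0.03 with TMM over all genes with a read. No direction is therefore given for these 2 genes. The median over the 4 members was 0.34, against 0.02 over all genes tested.

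**Figure D5:**
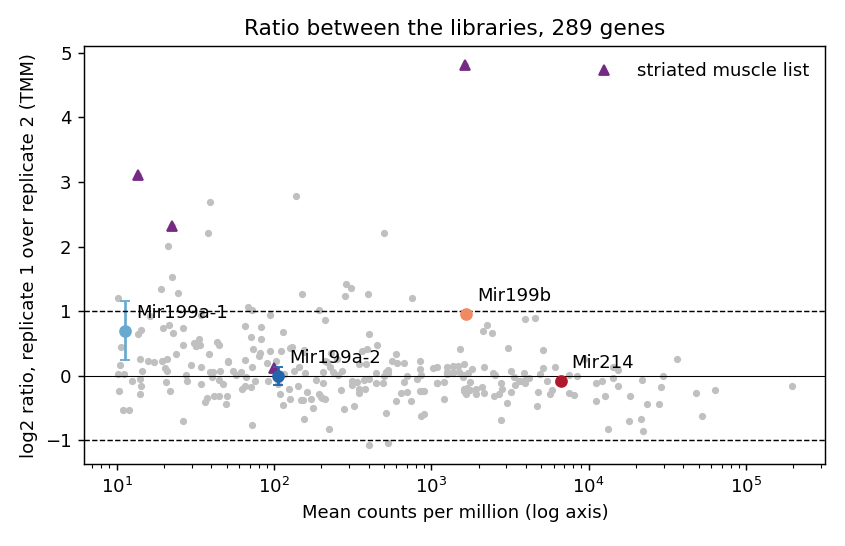
Log2 ratio of replicate 1 over replicate 2 after TMM scaling against mean CPM (log axis) for the 289 genes tested (grey), with the 4 genes in colour with 95% counting intervals, the striated muscle list as triangles and dashed lines at 2-fold. Mir199b lies just under the upper line, Mir199a-1 between the lines, and Mir214 and Mir199a-2 close to the zero line, at −0.08 and −0.01.

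Other miRNA genes known from mesenchyme, smooth muscle and connective tissue were read beside the members. Of the 18 listed, 17 had a row and a read, 15 were tested, and 0 were called higher and 0 lower in replicate 1, against 7.27% and 0.692% of all genes tested, with a median log2 ratio of −0.15. At 15 genes, a count of 0 is near that background. They held 26.5% of sense reads in replicate 1 and 25.6% in replicate 2. By level they were led by Mir143, a gene of smooth muscle, at 195813 ± 1350 CPM, Mir10a of a Hox cluster at 29647 ± 2450 CPM and Mir21a, known from fibroblast activation, at 15324 ± 113 CPM (SD, n = 2 each). Their log2 ratios ran from −0.35 to 0.88, and the upper end was Mir145a, the smooth muscle neighbour of Mir143. Mir145a was counted 41123 times in replicate 1 and 20279 times in replicate 2, a shift near that of Mir199b, while Mir143 had a log2 ratio of −0.17.

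Some markers of striated muscle were also higher in replicate 1. The list held 0.336% of sense reads in replicate 1 and 0.0202% in replicate 2, and 3 of its 4 tested genes were called higher in replicate 1, against 7.27% of all genes called in that direction. Of these 3, Mir499 (38.4 and 6.76 CPM) and Mir133b (25.0 and 2.51 CPM) reached the mean of 10 CPM needed for testing through replicate 1 alone, so that the threshold favoured a call in that direction. Mir206, a gene of skeletal muscle, was counted 24624 times in replicate 1 and 797 times in replicate 2. Mir133a-1 and Mir133a-2 had no read in either library, and Mir208b had 851 and 712 reads, with a log2 ratio of 0.12. Mir208a had 35 and 25 reads and Mir1a-1 had 4 and 3, too few to be tested. Of the blood cell genes, 1 of 5 was called higher in replicate 1, against the same 7.27% of all genes tested. It was the erythroid gene Mir451a, with 8396 and 3336 reads, and the list as a whole held 0.258% and 0.182%. Its neighbour Mir144, on the same list, went the other way, with 1073 and 1273 reads. The log2 ratios of the list ran from −0.38 for Mir144 to 1.20 for Mir451a, with a median of 0.25. The liver gene Mir122 had 14085 and 9661 reads and was not called. None of the 12 epithelial genes was called in either direction, against 7.96% of all genes tested, and their log2 ratios ran from −0.85 to 0.25. At 12 genes, a count of 0 is near that background. The neural genes Mir124a-1, Mir124a-2 and also Mir124a-3 were at 0, and the neural list held 0.140% and 0.113%. Reads that fitted several places may be missing from these counts, so a 0 at the Mir124a or Mir133a genes does not show absence. The part of these other cell types in the difference of Mir199b was not tested.

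The genes most like each member are given by level and by ratio, over 2 libraries only. In mean level, Mir214 stood between Mir652 at 7470 ± 324 CPM and Mir93 at 6403 ± 246 CPM (SD, n = 2 each), and its gap to Mir93 of 245 CPM was less than its own SD. Mir199b stood between Mir28a at 1682 ± 11.0 CPM and Mir101b at 1661 ± 86.7 CPM, both well within its SD. Mir199a-2 lay between Mir338 at 109.9 ± 5.90 CPM and Mir7j at 106.6 ± 3.02 CPM, and Mir199a-1 between Mir450-2 at 11.9 ± 2.07 CPM and Mir181b-1 at 11.2 ± 1.15 CPM, and these gaps were smaller than the spread. By ratio between the libraries, the nearest gene was Mir302b for Mir214, Mir582 for Mir199b, Mir127 for Mir199a-2 and Mir434 for Mir199a-1. Mir582 was counted 364 and 172 times in replicates 1 and 2, and Mir434 was counted 21308 and 11992 times.

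By seed, the members fall into groups. The 3p strands of the 3 miR-199 genes share 1 seed, which no other RefSeq mature miRNA has. The seed of miR-199a-5p was found in no other gene than Mir199a-1 and Mir199a-2 among these mature sequences. The seed of miR-214-3p is also that of miR-761, shown here to compare the remaining letters.
miR-214-3p: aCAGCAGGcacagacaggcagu
miR-761: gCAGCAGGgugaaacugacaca
Mir761 had 0 reads in both libraries, a count that for replicates 1 and 2 leaves room for 0.388 and 0.376 CPM of reads placed in 1 position. Counts are per whole hairpin, so the reads of the 2 arms of Mir214 cannot be told apart.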

How the data were processed

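Small RNA from stomach was sequenced in 2 libraries. The authors deposited raw read counts per gene in 3 columns, for both strands together, for sense reads and for reads opposite to the gene. Per the file headers, the tables were derived from alignments to mm10 with the GENCODE M4 annotation. For the aligner and the counter, name and version were not given in the sources used here. The 4 summary totals name no gene and were left out: reads placed in several positions, unmapped reads (21.3% and 20.3% in replicates 1 and 2) and reads outside genes (2.81% and 3.11%), with 0 ambiguous. Opposite-strand reads were 3.35% and 2.82% of assigned reads. The strand column with the larger total was used.

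Symbols and places came from GENCODE M21 (GRCm38), which matched 1894 of 1973 identifiers, and all 4 members. Sequences came from RefSeq, GRCm38.p6, in which all 4 members matched by symbol. Hairpins were folded with RNAfold 2.7.2. TMM factors came from edgeR 4.0.16 under R 4.3.3 over the genes tested, those with a mean of at least 10 CPM, with 0.5 added to counts for ratios, and DESeq2 1.42.0 gave alternative size factors. Other steps used Python 3.11.15, pandas 2.3.3 and scipy 1.17.1. Counts were simulated with these depths and counting error alone, and 286 genes passed the level threshold. On them, the between-library test called 100 of 100 genes planted at 3-fold, 1 of 99 at 1.5-fold and 0 of 87 unchanged. No further spread between libraries was simulated, so these figures do not show how the test behaves on pools that differ by more. No molecular identifiers are described for these libraries, so each interval and floor covers counting error only.

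The members and lists were chosen with earlier results of these data known. Named genes were the members, the genes next to each in level and ratio, genes sharing a seed, genes within 10 kb, and up to 3 per marker list by level; others named were chosen after their values were seen. Alternatives were other scalings and pseudocounts, both strands, other denominators, no filter, no minimum fold, and each library left out.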

Additional observations from a re-analysis of the deposited data

How the results depend on the processing

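The log2 ratio of Mir199b passed the 2-fold threshold with total sense reads (1.14) and with TMM over all genes with a read (1.00179, an alternative added after the data were seen), but not with DESeq2 size factors (0.94), both strands (0.95) or a pseudocount of 1 (0.96). Mir199a-2 turned to 0.18 and 0.034 with the first pair of scalings, and Mir214 turned to 0.10 with total reads. The members called numbered 1 with each of these, 3 with no minimum fold and 0 otherwise, and the genes called overall numbered 220 with no minimum fold and 55 with no filter, against 23. With all reads as the CPM denominator, the levels of Mir214, Mir199b, Mir199a-2 and Mir199a-1 came to 3294, 825, 52.9 and 5.63 CPM, and the members' share was 1.05% without Mir143 in the denominator. These values shift because the denominator changes. With a single library left, the share was 0.756% or 0.931%. No paired analysis was possible because there is 1 group. With 2 pools, the precision of every mean and SD is limited, and a count of Mir199a-1 near 100 reads has a wide interval.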
